A study of Mus musculus with 17 samples.

Results

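The integrated stress response (ISR) genes described here are 36 genes that encode the transcription factor ATF4, its partner factors and its well-known targets. They form a list by name, whose rule uses no measured value, although earlier results of these data were known when it was drawn up. They were looked up among 78239 gene identifiers of a bulk RNA-seq series of mouse pancreatic islets. All 36 were found and all 36 passed the filter on low counts in both tables of the series. By role, 7 are transcription factors, 6 act in feedback and translation control, 6 are serine and one-carbon enzymes, 7 are other amino acid enzymes, 8 are amino acid transporters and 2 encode a receptor and a secreted protein.

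In the ISR, a set of kinases phosphorylates the translation initiation factor eIF2 when a cell meets unfolded protein in the endoplasmic reticulum (ER), amino acid shortage, haem shortage or double-stranded RNA. Bulk protein synthesis then slows, while translation of the *Atf4* mRNA increases, and ATF4 switches on genes for amino acid synthesis, amino acid uptake and tRNA charging. In β cells, whose load of proinsulin is high, the ER-resident kinase PERK (*Eif2ak3*) is needed for normal function. Since ATF4 is controlled mainly at translation, mRNA levels report on its targets more directly than on ATF4 itself, and RNA-seq does not measure eIF2 phosphorylation.

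The series holds 17 islet samples of male mice in 6 groups and 2 tables. They are called mice here, although the sources do not say whether a bulk sample came from 1 mouse or from pooled islets. The first table has 3 wildtype and 3 *Pax4* R192H mice aged 12 weeks and kept on standard chow (SCD), and 3 of either genotype aged 16 weeks after 4 weeks of high-fat diet (HFD), so diet and age cannot be told apart. *Pax4* R192H mice (labelled Pax4 HH) are homozygous for R200H, the mouse counterpart of the human residue change R192H, on a C57BL6/N background, and the wildtype mice are their littermates. In the second table, 3 *Pax4* βiKO mice carried 2 floxed *Pax4* alleles and *Pdx1-CreERT2*, a tamoxifen-inducible Cre under the promoter of a gene expressed in β cells, and 2 controls carried the floxed alleles without Cre. Controls and *Pax4* βiKO mice alike received tamoxifen when 7 to 9 weeks old and the HFD from 12 weeks, and were 20 weeks old after 8 weeks of the diet. Loss of *Pax4* and presence of Cre therefore cannot be told apart. *Pax4*, the targeted gene, was listed at 0 counts in all 17 libraries, which left the genotype labels unchecked.

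Values are read counts scaled to CPM, the usual share-of-library unit, of a library scaled with edgeR's TMM factors, and fold changes are log2 with their standard error (SE). A gene was called where the adjusted p-value of edgeR's quasi-likelihood F-test, corrected over all tested genes with the Benjamini-Hochberg method, was below 0.05 and the absolute log2 fold change exceeded 0.5. Libraries held between 24268150 and 42679673 counts in the first table, where 2 features took between 36.2% and 53.3% of them, and between 28618787 and 31887499 in the second, where the top 2 took between 8.68% and 11.1%. Levels are not comparable between the tables, which were scaled separately. Nothing in the labels says how the animals of a group were spread over islet preparations, so p-values measure the spread between these samples. The 10 β cell markers summed to between 45090 and 59368 CPM in SCD-fed wildtype, 65469 and 93846 CPM in HFD-fed wildtype, 50619 and 52741 CPM in SCD-fed *Pax4* R192H and 99293 and 110480 CPM in HFD-fed *Pax4* R192H islets. Between the genotypes on the HFD, 6 of the 10 had a negative fold change, where 48.6% of all tested genes had a positive one, 2 were called lower, where 0.820% of all tested genes were, and the median log2 fold change was -0.39. Markers of exocrine acinar cells, 23 genes such as digestive enzymes, summed to between 18011 and 27390 CPM in HFD-fed wildtype and between 40089 and 107090 CPM in HFD-fed *Pax4* R192H islets, without overlap. The 9 ductal markers summed to between 233.8 and 264.1 CPM and between 333.8 and 352.0 CPM in these groups, also without overlap, and their part in the results was not tested. In bulk tissue, a change in the number of cells of a type and a change in RNA per cell cannot be told apart.

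ATF4 binds a composite C/EBP-ATF element, searched here as the letters TGATGNAAN on both strands in the window from 250 bases before to 50 bases after the RefSeq start site (GRCm38.p6). Windows were given for 31 of the 36 genes, and 11 of these, 35.5%, held at least 1 match, against 4.50% of all 27025 genes with a window. The genes were chosen as known ATF4 targets, so the difference describes the choice. The matches of 7 genes are printed with 10 bases on each side, since these genes are the called members with a match and the members often used to report ATF4 activity. Capitals mark the match, and each sequence reads 5′ to 3′ on the strand stated.

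Pycr1 (chr11:120643833-120643861, minus strand): gccctgtgtaTGATGCAATgcacaaggct

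Vldlr (chr19:27216809-27216837, minus strand): ctaggagcgcTGATGCAACtattgctgct

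Nupr1 (chr7:126625563-126625591, plus strand): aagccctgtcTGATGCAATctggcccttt

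Asns (chr6:7693214-7693242, minus strand): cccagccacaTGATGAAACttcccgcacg

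Trib3 (chr2:152344029-152344057, plus strand): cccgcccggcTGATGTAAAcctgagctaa

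Chac1 (chr2:119351038-119351066, minus strand): ctggcaggagTGATGCAACggcagggaag

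Slc7a11, first match (chr3:50443661-50443689, minus strand): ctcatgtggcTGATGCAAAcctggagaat

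Slc7a11, second match (chr3:50443643-50443671, plus strand): ggctgcatgaTGATGCAAAttctccaggt

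*Slc7a11*, which encodes the cystine transporter subunit xCT, was the gene with 2 matches, centred 62 and 44 bases before its start on opposite strands. The matches of *Pycr1* and *Asns* lay on the strand of the gene, centred 99 and 19 bases before the start, and that of *Trib3* lay 18 bases after it. *Atf3*, *Slc1a4*, *Jdp2* and *Pck2* also held 1 match each. No match was found in the windows of *Phgdh*, *Psat1*, *Aldh18a1* and *Cebpb*, and *Slc1a5* was among the 5 genes without a window. *Vldlr* has 2 RefSeq windows. The one at the GENCODE start of the gene held no match, and the match lies in the window of a start inside the gene. The RefSeq start of *Nupr1* also lies inside its GENCODE span. A match describes the letters in a window, and no binding was measured here.

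**Figure D1:**
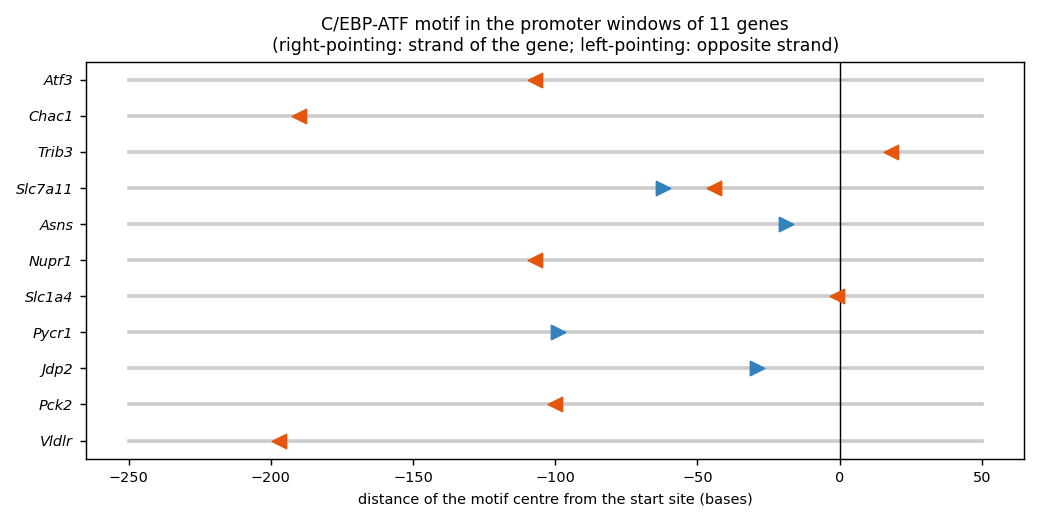
Position of each TGATGNAAN match (triangles; right-pointing on the strand of the gene, left-pointing on the opposite strand) in the promoter windows of the 11 genes that held one; the horizontal axis is the distance from the RefSeq start site in bases and grey bars are the windows. Of the 12 matches, 11 were centred before the start and 1, in *Trib3*, after it.

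The first question is whether the pathway differed between *Pax4* R192H and wildtype islets on the HFD. By the call rule, a small part of it did. *Pycr1*, a proline synthesis enzyme, and *Slc1a5*, a glutamine transporter, were higher in *Pax4* R192H, and *Vldlr*, a lipoprotein receptor, was lower. *Atf4* and *Ddit3*, the central factors, were not called. That made 3 of 36 members called, 2 higher and 1 lower, where 2.28% of all tested genes were called, 1.46% higher and 0.820% lower. Of the 36, 25 had a positive fold change, 69.4% against 48.6% of all tested genes, and the median log2 fold change was 0.12 against -0.01. The groups did not overlap for 11 members, which is 30.6% against 22.9% of all tested genes. Without *Pax4* R192H mouse 1, whose acinar marker sum was the highest of the first table, 1 member was called, *Pycr1*, and the same held without *Pax4* R192H mouse 3, wildtype mouse 1 or wildtype mouse 3. With the mean acinar marker level as a covariate, 0 members were called, against 0.00523% of all tested genes.

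*Pycr1* (chromosome 11, 120635712 to 120643769, minus strand) encodes pyrroline-5-carboxylate reductase, the last step of proline synthesis from glutamate. In HFD-fed mice its level was 11.1, 11.2 and 8.93 CPM in wildtype and 24.8, 23.3 and 20.2 CPM in *Pax4* R192H. The lowest *Pax4* R192H mouse was thus well above the highest wildtype mouse. The log2 fold change was 1.13 ± 0.15 (SE; adjusted p = 0.00411, edgeR). *Pycr1* stayed called when each of the 6 mice was left out in turn. With the mean acinar marker level as a covariate it was 0.92 ± 0.22 (adjusted p = 0.337, edgeR; over the 8 alternatives that kept all mice, adjusted p ranged from 3.72e-08 to 0.337).

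*Slc1a5* (chromosome 7, 16781340 to 16798274, plus strand) encodes ASCT2, which carries glutamine and other neutral amino acids into the cell. Its level was low, at 1.47, 1.23 and 1.64 CPM in wildtype mice on HFD and 5.65, 2.64 and 3.08 CPM in their *Pax4* R192H counterparts. Between 36 and 233 counts per library stood behind it over all 17 mice. *Pax4* R192H mouse 1, with the highest *Slc1a5* level of the first table, is the one with the acinar marker sum of 107090 CPM. The log2 fold change was 1.39 ± 0.30 (adjusted p = 0.0317, edgeR) and 0.99 without that mouse (adjusted p = 0.146, edgeR). With the acinar covariate it was 0.93 ± 0.46 and not called (adjusted p = 0.674, edgeR; 0.00188 to 0.674 over the alternatives that kept all mice). The call was also lost when any mouse other than *Pax4* R192H mouse 2 was left out.

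*Vldlr* (chromosome 19, 27216484 to 27254231, plus strand) encodes the very low density lipoprotein receptor. HFD-fed wildtype mice were at 35.5, 25.4 and 23.8 CPM and HFD-fed *Pax4* R192H mice at 17.8, 16.5 and 18.4 CPM. All *Pax4* R192H mice were below all wildtype mice. The log2 fold change was -0.68 ± 0.15 (adjusted p = 0.0344, edgeR), and the call was lost when any mouse other than wildtype mouse 2 was left out, with wildtype mouse 1 moving the value most, to -0.48. With the acinar covariate it was -0.66 (adjusted p = 0.567, edgeR).

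*Atf4* (chromosome 15, 80255184 to 80257541, plus strand) was at 159, 227 and 206 CPM in HFD-fed wildtype and 170, 228 and 203 CPM in HFD-fed *Pax4* R192H mice. The groups overlapped almost entirely. Its log2 fold change was 0.02 ± 0.16 (adjusted p = 0.967, edgeR), and its sign turned without wildtype mouse 1 or *Pax4* R192H mouse 2. *Ddit3* (chromosome 10, 127290774 to 127296288, plus strand) encodes CHOP, a factor linked to cell death under ER stress. It was at 15.2, 18.1 and 17.8 CPM in wildtype and 12.3, 12.8 and 20.0 CPM in *Pax4* R192H mice, with a log2 fold change of -0.17 ± 0.20 (adjusted p = 0.740, edgeR). Exons of *Ddit3* overlap those of *Mars*, which encodes a tRNA synthetase, and *Gm4189* on the opposite strand. Of the 7 factors, 3 had a positive and 4 a negative fold change, and none was called.

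No gene of feedback and translation control was called on the HFD either, and the 6 log2 fold changes lay between -0.15 and 0.16. *Sesn2*, a sestrin that restrains mTORC1 and has the lowest p-value of this group, was at 21.0, 14.8 and 18.1 CPM in wildtype and 17.1, 16.5 and 14.99 CPM in *Pax4* R192H. Its log2 fold change was -0.15 ± 0.16 (adjusted p = 0.722, edgeR). *Trib3*, a pseudokinase that feeds back on ATF4, was at -0.15 ± 0.33, and *Chac1*, which breaks down glutathione, was at 0.04 ± 0.25. *Trib3* and *Chac1* were named after their values were seen, because they are common ISR reporters, and the sign of each turned when single mice were left out.

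**Figure D2:**
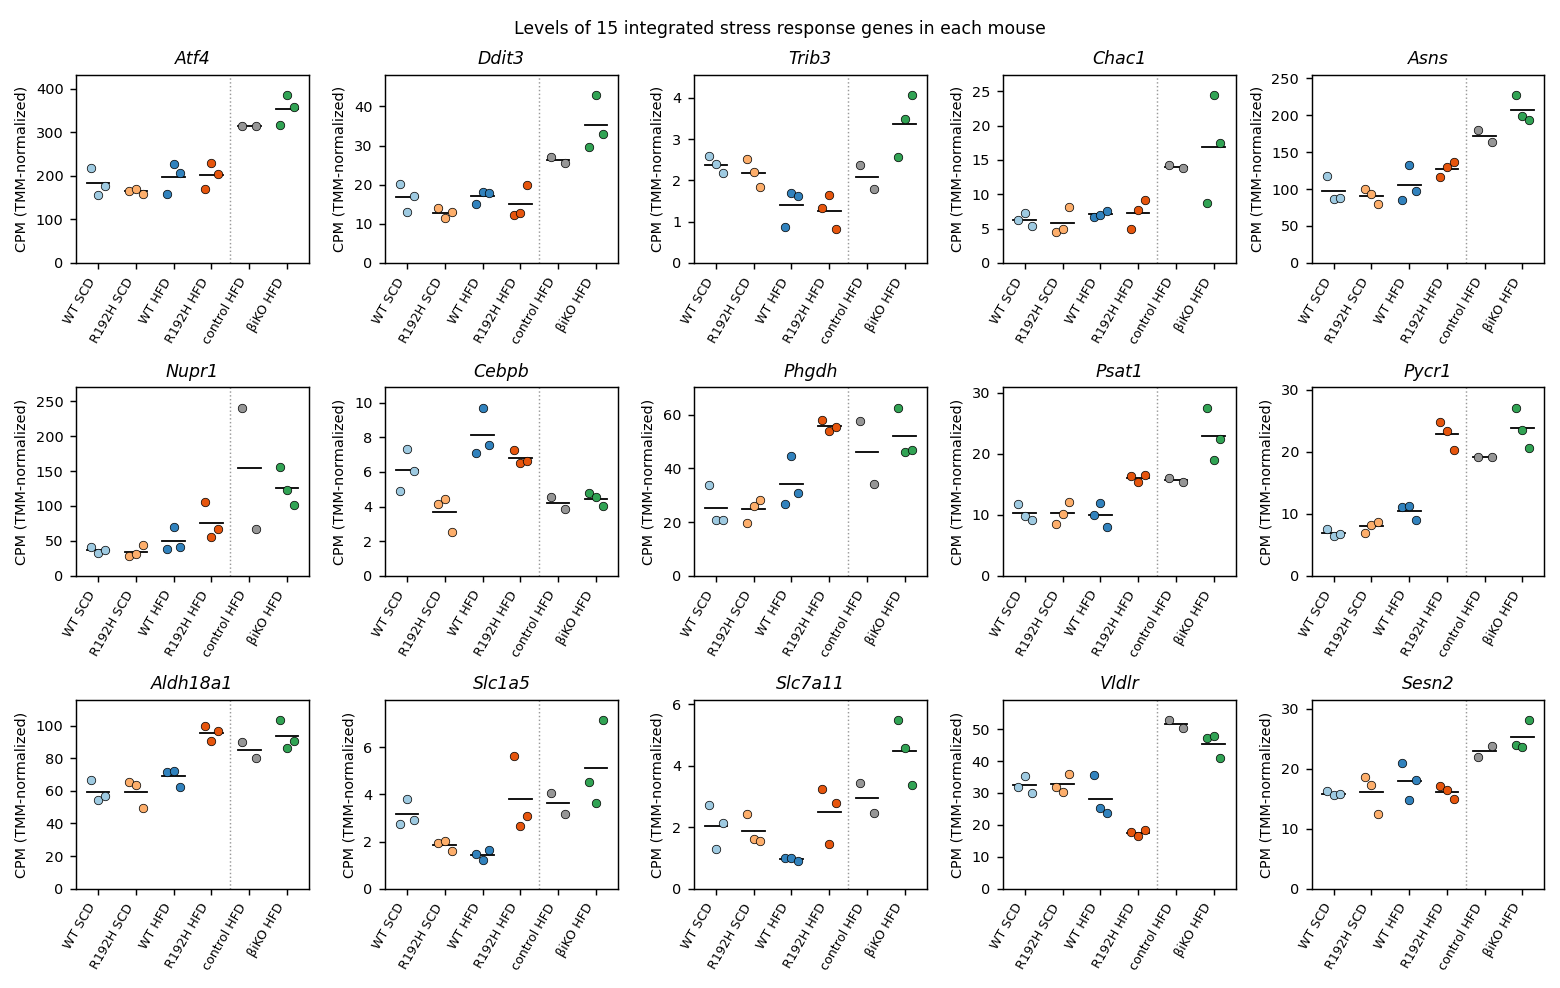
Level of 15 of the ISR genes in each mouse (CPM on a linear axis from 0; points are mice, bars are group means, and the dotted line parts the tables, between which levels are not comparable). *Pycr1*, *Psat1*, *Phgdh* and *Aldh18a1* in HFD-fed *Pax4* R192H mice lie above all other mice of the first table, *Vldlr* lies below them, and *Atf4* and *Ddit3* overlap. The share of all tested genes that are separated in this way is not given here.

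Of the 3 enzymes of serine synthesis, *Phgdh* and *Psat1* did not overlap between the genotypes on the HFD, while *Psph* did, and edgeR called none of them. DESeq2, which called 7.06% of the genes it gave an adjusted p, called *Phgdh* (adjusted p = 0.0267) and *Psat1* (adjusted p = 0.0118). *Phgdh* (chromosome 3, 98313170 to 98339990, minus strand), the first enzyme of the pathway, was at 26.9, 44.6 and 30.9 CPM in wildtype and 58.1, 53.7 and 55.5 CPM in *Pax4* R192H. *Psat1* (chromosome 19, 15904678 to 15947337, minus strand), the second, was at 9.998, 11.9 and 8.05 CPM and at 16.3, 15.4 and 16.6 CPM. For both enzymes no wildtype mouse reached the lowest *Pax4* R192H mouse. The log2 fold changes were 0.71 ± 0.22 (adjusted p = 0.106, edgeR) and 0.69 ± 0.18 (adjusted p = 0.0574, edgeR). Both were called when wildtype mouse 2 was left out, at 0.95 and 0.84. The one-carbon genes *Shmt2*, *Mthfd2* and *Aldh1l2* overlapped as well.

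All 7 of the other amino acid enzymes had a positive fold change, with a median of 0.28, and *Pycr1* was the one that was called. *Aldh18a1* (chromosome 19, 40550257 to 40588463, minus strand) encodes the synthase that starts proline synthesis from glutamate. It was at 71.8, 72.4 and 62.2 CPM in wildtype and 99.8, 90.8 and 96.5 CPM in *Pax4* R192H, again without overlap. Its log2 fold change of 0.48 ± 0.13 (adjusted p = 0.0786, edgeR) missed both parts of the call rule. *Asns*, the asparagine synthetase and an often used ATF4 target, was at 85.3, 133 and 97.1 CPM in wildtype and 117, 130 and 136 CPM in *Pax4* R192H. These overlapped, with a log2 fold change of 0.28 ± 0.17 (adjusted p = 0.465, edgeR), which lay between 0.15 and 0.48 when single mice were left out. *Asns* was named after its values were seen.

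Among the 8 transporters, 6 had a positive fold change, with a median of 0.29. *Slc7a11* was at 1.01, 0.989 and 0.912 CPM in HFD-fed wildtype and 3.26, 1.47 and 2.78 CPM in HFD-fed *Pax4* R192H, so that the groups did not overlap. Its log2 fold change was 1.37 ± 0.36 (adjusted p = 0.0694, edgeR; 0.0143 and called with DESeq2). *Slc1a4*, a neutral amino acid transporter of the same family as *Slc1a5*, was at 8.66, 9.76 and 9.92 CPM and at 10.9, 12.8 and 11.8 CPM, with 0.32 ± 0.17 (adjusted p = 0.397, edgeR). Both transporters were named after their values were seen. Of the stress factors, *Nupr1* (chromosome 7, 126623249 to 126630861, minus strand), a small chromatin protein that is abundant in stressed exocrine pancreas, was at 38.9, 70.2 and 40.8 CPM in wildtype and 105, 55.6 and 66.7 CPM in *Pax4* R192H. Its log2 fold change was 0.60 ± 0.26 (adjusted p = 0.266, edgeR), 0.29 without *Pax4* R192H mouse 1, and -0.18 with the acinar covariate.

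On the SCD the question was whether the genotypes differed before the metabolic challenge, and 0 of 36 members were called, as were 0% of all tested genes. At an unadjusted p below 0.05 there were 4 members, all lower in *Pax4* R192H, or 11.1% against 3.29% of all tested genes (2.19% lower). DESeq2 called 0 as well, and 0.126% of all genes it tested. *Cebpb* (chromosome 2, 167688915 to 167690418, plus strand) encodes C/EBPβ, a partner of ATF4 at the composite element. It was at 4.92, 7.35 and 6.04 CPM in wildtype and 4.14, 4.42 and 2.52 CPM in *Pax4* R192H, with no overlap and a log2 fold change of -0.72 ± 0.23 (adjusted p = 1, edgeR). *Slc1a5* was at 2.73, 3.81 and 2.92 CPM in wildtype and 1.93, 2.03 and 1.603 CPM in *Pax4* R192H, also without overlap (log2 fold change -0.76 ± 0.30, adjusted p = 1, edgeR). The others were *Slc1a4* at -0.40 ± 0.17 and *Gpt2*, an alanine aminotransferase, at -0.51 ± 0.22. When single mice were left out, *Slc1a4* was between -0.54 and -0.18 and *Gpt2* between -0.67 and -0.38. In all, 27 of the 36 fold changes were negative, or 75.0%, where 49.3% of all tested genes had a positive one, and the median was -0.10. The 3 members whose groups did not overlap were all lower, as were 4.22% of all tested genes. Immune markers summed to between 104.5 and 176.7 CPM in SCD-fed wildtype and between 64.9 and 74.3 CPM in SCD-fed *Pax4* R192H, and their part in these values was not tested.

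Whether the genotype difference itself changed with diet was tested with the interaction term. It called 0 of 36 members, against 0.131% of all tested genes. At an unadjusted p below 0.05 there were 9 members, 8 positive and 1 negative, or 25.0% against 11.2% of all tested genes (6.84% positive and 4.38% negative). DESeq2 called 2, *Pycr1* and *Slc1a5*, where it called 1.65% of all genes it tested. Of the 36 interaction terms 28 were positive, or 77.8% against 49.2% of all tested genes. *Slc1a5* had the largest difference, 2.15 ± 0.42 log2 units (adjusted p = 0.0631, edgeR; 0.00168 with DESeq2; 0.00149 to 0.683 over its alternatives). On the SCD its *Pax4* R192H mice were all below wildtype, and on the HFD they were all above. *Pycr1* had the next lowest p-value, at 0.92 ± 0.21 (adjusted p = 0.108, edgeR). *Vldlr* was at -0.70 ± 0.21, *Slc7a11* at 1.49 ± 0.51, *Slc1a4* and *Phgdh* each at 0.73, *Gpt2* at 0.76, *Psat1* at 0.70 and *Aldh18a1* at 0.47. These have adjusted p-values between 0.220 and 0.390 (edgeR).

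**Figure D3:**
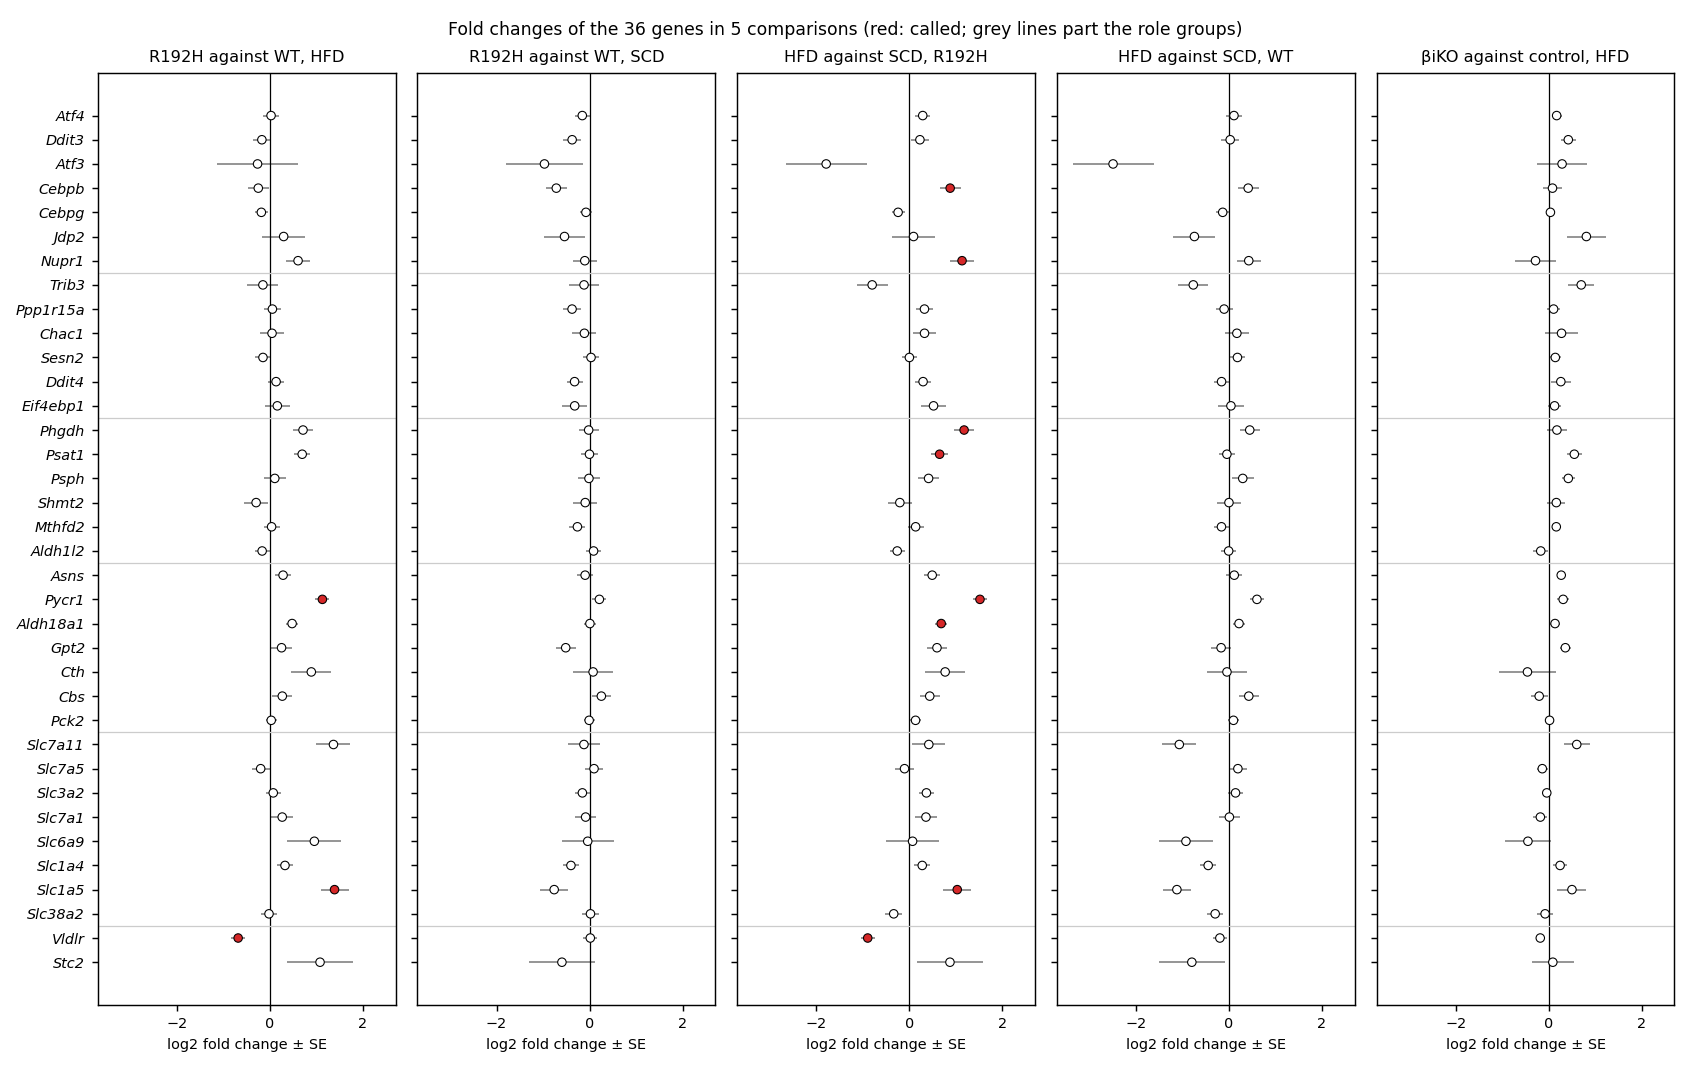
Log2 fold change with SE of the 36 genes in 5 comparisons, ordered by role (red points are called, open points are not). The called points are 3 in *Pax4* R192H against wildtype on HFD and 8 in HFD against SCD in *Pax4* R192H, and there are none in the other 3 panels.

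In *Pax4* R192H islets, HFD-fed against SCD-fed mice, 8 of 36 members were called, 7 higher and 1 lower, or 22.2% against 15.7% of all tested genes (9.75% higher and 5.91% lower). The 7 were *Cebpb*, *Nupr1*, *Phgdh*, *Psat1*, *Pycr1*, *Aldh18a1* and *Slc1a5*, and *Vldlr* was lower. The median log2 fold change of the 36 was 0.33 against -0.06 of all tested genes, and 28 were positive, or 77.8% against 46.4%. The groups did not overlap for 19 members, 15 higher and 4 lower, or 52.8% against 41.8% (21.3% higher and 20.6% lower). This comparison uses the same HFD-fed *Pax4* R192H mice as that of the genotypes on the HFD.

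Of the 8 called, 4 were amino acid enzymes. *Pycr1* was at 6.94, 8.21 and 8.74 CPM in SCD-fed and 24.8, 23.3 and 20.2 CPM in HFD-fed mice, and its log2 fold change of 1.52 ± 0.15 (adjusted p = 0.000109, edgeR) was the largest increase of the 36. *Phgdh* was at 19.8, 26.0 and 28.2 CPM on the SCD and rose by 1.18 ± 0.22 (adjusted p = 0.00333, edgeR). *Psat1*, at 8.52, 10.2 and 12.1 CPM on the SCD, rose by 0.65 ± 0.18 (adjusted p = 0.0222, edgeR). All of these enzymes were higher in each HFD-fed than in each SCD-fed mouse. *Aldh18a1*, at 65.6, 63.5 and 49.5 CPM on the SCD, rose by 0.68 ± 0.13 (adjusted p = 0.00428, edgeR). *Asns* was at 99.7, 93.0 and 79.7 CPM on the SCD, with 0.49 ± 0.17 (adjusted p = 0.0676, edgeR).

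Of the factors, *Nupr1* was at 29.0, 31.6 and 43.4 CPM on the SCD and rose by 1.13 ± 0.26 (adjusted p = 0.0105, edgeR). *Cebpb* was at 4.14, 4.42 and 2.52 CPM on the SCD and at 7.30, 6.55 and 6.63 CPM on the HFD, a rise of 0.88 ± 0.23 (adjusted p = 0.0187, edgeR). Those HFD values overlapped with both wildtype groups, so the SCD-fed *Pax4* R192H mice were the low ones. *Atf4* was at 165, 170 and 158 CPM on the SCD, with 0.29 ± 0.16 (adjusted p = 0.243, edgeR), and *Ddit3* at 14.1, 11.5 and 13.02 CPM, with 0.23 ± 0.20 (adjusted p = 0.467, edgeR). *Trib3* went the other way, from 2.52, 2.21 and 1.83 CPM to 1.32, 1.64 and 0.833 CPM (-0.80 ± 0.33, adjusted p = 0.112, edgeR). Thus the called genes did not include *Atf4*, *Ddit3*, *Trib3* or *Asns*.

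*Slc1a5* rose by 1.03 ± 0.30 (adjusted p = 0.0308, edgeR), and *Vldlr* was at 31.9, 30.2 and 36.04 CPM on the SCD and fell, with a log2 fold change of -0.89 ± 0.15 (adjusted p = 0.00197, edgeR). *Pycr1*, *Phgdh*, *Aldh18a1*, *Nupr1* and *Vldlr* stayed called when each of the 6 mice was left out in turn. *Psat1* was lost without any one mouse other than SCD-fed mouse 3, *Cebpb* without SCD-fed mouse 3 or HFD-fed mouse 1 or 2, and *Slc1a5* without any SCD-fed mouse or HFD-fed mouse 1, where it was 0.63. The acinar marker sum lay between 14820 and 21030 CPM on the SCD and between 40089 and 107090 CPM on the HFD. With the mean acinar marker level as a covariate, 1 of the 8 calls was left, *Pycr1* at 1.27 ± 0.24 (adjusted p = 0.0387, edgeR; 3.51e-15 to 0.0387 over its alternatives), where 0.768% of all tested genes were called. *Nupr1* was then at 0.20, *Slc1a5* and *Psat1* each at 0.50, *Phgdh* at 1.00, *Cebpb* at 0.84, *Aldh18a1* at 0.67 and *Vldlr* at -0.87. The 3 HFD-fed *Pax4* R192H mice had the 3 highest acinar sums of the first table. Without HFD-fed mouse 1, 5 of the 8 calls were left.

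In wildtype islets, HFD-fed against SCD-fed mice, 0 of 36 members were called, against 0.371% of all tested genes. At an unadjusted p below 0.05 there were 6 members, 1 higher and 5 lower, or 16.7% against 15.2% of all tested genes (6.86% higher and 8.37% lower). DESeq2 called *Pycr1* and *Slc1a5*, again 2, where it called 2.84% of all genes it tested. Of the 36 fold changes 17 were positive, or 47.2% against 51.1%. *Pycr1* was at 7.51, 6.44 and 6.71 CPM on the SCD and 11.1, 11.2 and 8.93 CPM on the HFD (0.60 ± 0.15, adjusted p = 0.0963, edgeR; 0.0363 with DESeq2). *Slc1a5* had the opposite sign, from 2.73, 3.81 and 2.92 CPM to 1.47, 1.23 and 1.64 CPM (-1.12 ± 0.30, adjusted p = 0.112, edgeR; 0.0364 with DESeq2). Neither gene overlapped between the diets, but the share of all tested genes without overlap in this comparison is not given here. *Slc7a11* was at -1.07 ± 0.36, *Trib3* at -0.77 ± 0.33, *Slc1a4* at -0.45 ± 0.17 and *Atf3*, an early stress factor, at -2.49 ± 0.87. Immune markers summed to between 104.5 and 176.7 CPM on the SCD and between 63.7 and 70.9 CPM on the HFD in wildtype, and 5 of the 9 endothelial and stromal markers had an unadjusted p below 0.05, 1 higher and 4 lower. The part of these markers was not tested. *Atf3* varied widely within groups, at 7.92, 51.5 and 44.2 CPM in SCD-fed wildtype and 8.69, 5.50 and 39.2 CPM in SCD-fed *Pax4* R192H mice.

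In *Pax4* βiKO islets, compared with controls on the HFD, 0 of 36 members were called, against 0.0893% of all tested genes. At an unadjusted p below 0.05 there were 7 members, all higher in *Pax4* βiKO (*Ddit3*, *Trib3*, *Psat1*, *Psph*, *Asns*, *Pycr1* and *Gpt2*), or 19.4% against 12.8% of all tested genes (6.23% higher). DESeq2 called 0, against 2.16% of all genes it tested. In all, 26 of the 36 fold changes were positive, or 72.2% against 51.5% of all tested genes, and the median was 0.15. The control and *Pax4* βiKO mice did not overlap for 14 members, 38.9% against 32.6% of all tested genes, 13 higher and 1 lower (15.9% and 16.7%).

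*Psat1* was at 16.0 and 15.4 CPM in the controls and at 27.6, 18.9 and 22.4 CPM in *Pax4* βiKO (0.55 ± 0.16, adjusted p = 0.275, edgeR). *Psph*, which completes serine synthesis, was at 9.22 and 11.4 CPM and at 14.9, 12.7 and 13.8 CPM (0.42 ± 0.14, adjusted p = 0.303, edgeR). Both were above the controls in 3 of 3 *Pax4* βiKO mice. *Asns* was at 180 and 163 CPM and at 228, 199 and 193 CPM (0.27 ± 0.10, adjusted p = 0.336, edgeR). *Pycr1* was at 19.2 and 19.1 CPM and at 27.1, 23.5 and 20.7 CPM (0.31 ± 0.13, adjusted p = 0.382, edgeR). *Gpt2* was at 0.36 ± 0.12 (adjusted p = 0.293, edgeR). With 2 controls these separations rest on few mice.

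The central factors and the feedback gene *Trib3* did not overlap between these groups, though the margin was small for *Atf4*. *Ddit3* was at 27.1 and 25.5 CPM in the controls and at 29.6, 43 and 32.9 CPM in *Pax4* βiKO (0.42 ± 0.16, adjusted p = 0.337, edgeR). Without *Pax4* βiKO mouse 2 its log2 fold change was 0.24. *Trib3* was at 2.38 and 1.79 CPM and at 2.57, 3.48 and 4.08 CPM (0.70 ± 0.28, adjusted p = 0.372, edgeR). *Atf4* was at 315 and 314 CPM and at 316, 386 and 358 CPM, with the lowest *Pax4* βiKO mouse next to the controls (0.17 ± 0.11, adjusted p = 0.539, edgeR). Of the genes called in *Pax4* R192H, *Slc1a5* overlapped between the groups, at 4.05 and 3.18 CPM and at 4.54, 3.63 and 7.14 CPM. Its log2 fold change was 0.50 ± 0.31 (adjusted p = 0.540, edgeR) and 0.18 without *Pax4* βiKO mouse 3. *Phgdh* at 0.18 ± 0.22, *Aldh18a1* at 0.13 ± 0.10, *Cebpb* at 0.08 ± 0.20 and *Nupr1* at -0.28 ± 0.44 overlapped as well, with adjusted p-values between 0.624 and 0.894 (edgeR). *Vldlr* did not overlap, at 52.7 and 50.3 CPM and at 47.3, 48.0 and 40.9 CPM (-0.18 ± 0.10, adjusted p = 0.464, edgeR), as was the case for *Psat1* and *Pycr1*. *Slc7a11*, which edgeR did not call in *Pax4* R192H, was at 0.60 ± 0.28 (adjusted p = 0.415, edgeR). In this table the acinar marker sum did not follow the genotype, at 116370 and 26895 CPM in the controls and 91559, 18459 and 24757 CPM in *Pax4* βiKO mice, and all 23 markers had a negative fold change.

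Genes around the pathway were counted for comparison. On the HFD these counts stand against 2.28% of all tested genes called between the genotypes, 1.46% higher, and 48.6% with a positive fold change. Of 10 eIF2 kinases and regulators, 1 was called between the genotypes on the HFD, *Dnajc3*, which encodes the ER co-chaperone and PERK inhibitor p58IPK, at 0.80 ± 0.16 (adjusted p = 0.0218, edgeR). It was at 418, 621 and 494 CPM in wildtype and 871, 893 and 897 CPM in *Pax4* R192H mice. The 4 eIF2 kinases were not called, at log2 fold changes of 0.19 for *Eif2ak3* (PERK), -0.11 for *Eif2ak4* (GCN2), -0.22 for *Eif2ak2* (PKR) and -0.25 for *Eif2ak1* (HRI). Of the 8 eIF2 and eIF2B subunits, 1 was called, *Eif2b1* at 0.54 ± 0.13 (adjusted p = 0.0414, edgeR). Of the 20 cytosolic tRNA synthetases, several of which are ATF4 targets, 1 was called, *Qars1*, the glutaminyl-tRNA synthetase, at 0.62 ± 0.12 (adjusted p = 0.0187, edgeR), and 17 had a positive fold change.

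The ER chaperones and degradation factors, which answer mainly to ATF6 and XBP1, had more calls than the 36 genes. On the HFD 8 of 19 were called, all higher in *Pax4* R192H, where 1.46% of all tested genes were called higher. All 19 had a positive fold change, as had 48.6% of all tested genes. The median was 0.76, against 0.12 for the 36 ISR genes. The 4 of lowest p were *Derl3* at 1.89 ± 0.24, *Creld2* at 1.65 ± 0.25, *Edem1* at 0.77 ± 0.12 and *Hsp90b1* at 0.79 ± 0.15. In the *Pax4* βiKO comparison 0 of the 19 were called, against 0.0893% of all tested genes, 10 had an unadjusted p below 0.05, where 12.8% of all tested genes did, and the median was 0.32, against 0.15 for the ISR genes. In *Pax4* R192H islets on HFD against SCD, 15 of 19 chaperones, 4 of 20 synthetases and 4 of 8 eIF2 and eIF2B subunits were called, all higher, where 9.75% of all tested genes were called higher. The kinase and regulator list had 2 of 10 called, *Dnajc3* higher and *Impact* lower, at -0.62 ± 0.14 (adjusted p = 0.00909, edgeR), where 15.7% of all tested genes were called and 5.91% were called lower. Acinar markers were higher as well between the genotypes on the HFD, 23 of 23 by fold change and 6 called, with a median of 1.51. Acinar cells are rich in ER chaperones. With the mean acinar marker level as a covariate, 1 gene of all 19137 tested was called between the genotypes on the HFD. At most 1 call of these lists was therefore left there. For HFD against SCD in *Pax4* R192H, 0.768% of all tested genes were called with the covariate. The fold changes of these lists with the covariate are not given here, and the cause was not tested. No test compared the lists.

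**Figure D4:**
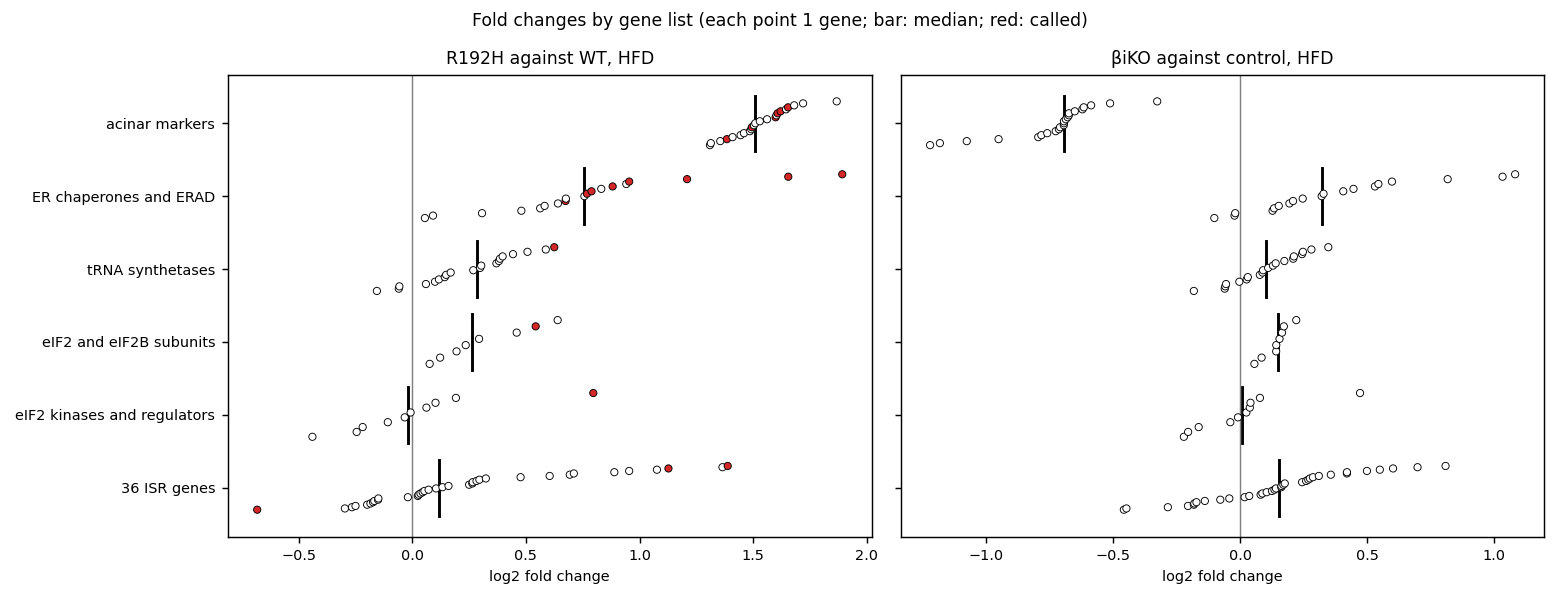
Log2 fold changes of the 36 ISR genes, of 4 neighbouring lists and of the acinar markers, for *Pax4* R192H against wildtype and *Pax4* βiKO against control on HFD (each point is 1 gene, bars are medians, red points are called). In the first panel the medians run from -0.02 for the eIF2 kinases and regulators to 1.51 for the acinar markers, with 0.12 for the ISR genes and 0.76 for the chaperones. In the second panel the acinar markers are all below 0.

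Within SCD-fed wildtype islets the 36 genes spanned a wide range of levels per length of exon. *Atf4* was the highest at 77.8 ± 13.1 CPM per kb (SD, n = 3), followed by *Asns* at 35.5 ± 6.46. *Pycr1* was at 1.75 ± 0.14 and *Slc1a5* at 0.76 ± 0.14. The lowest were *Slc7a11* at 0.147 ± 0.052 and *Stc2*, which encodes the secreted stanniocalcin 2, at 0.091 ± 0.051 CPM per kb, with 5 to 26 counts per mouse. For *Stc2* the log2 fold change between the genotypes on the HFD was 1.08 with an SE of 0.71 (adjusted p = 0.510, edgeR), although the groups did not overlap. Exons of 10 of the 36 genes overlap another gene in GENCODE M21, all of them a gene on the opposite strand, among them *Ddit3*, *Cebpb* and *Psph*. The gene opposite *Psph* is *Cct6a*, with up to 7031 counts in a sample, where *Psph* had at most 450. The libraries kept strand, but the strand setting of the counting is not given in the sources used here.

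**Figure D5:**
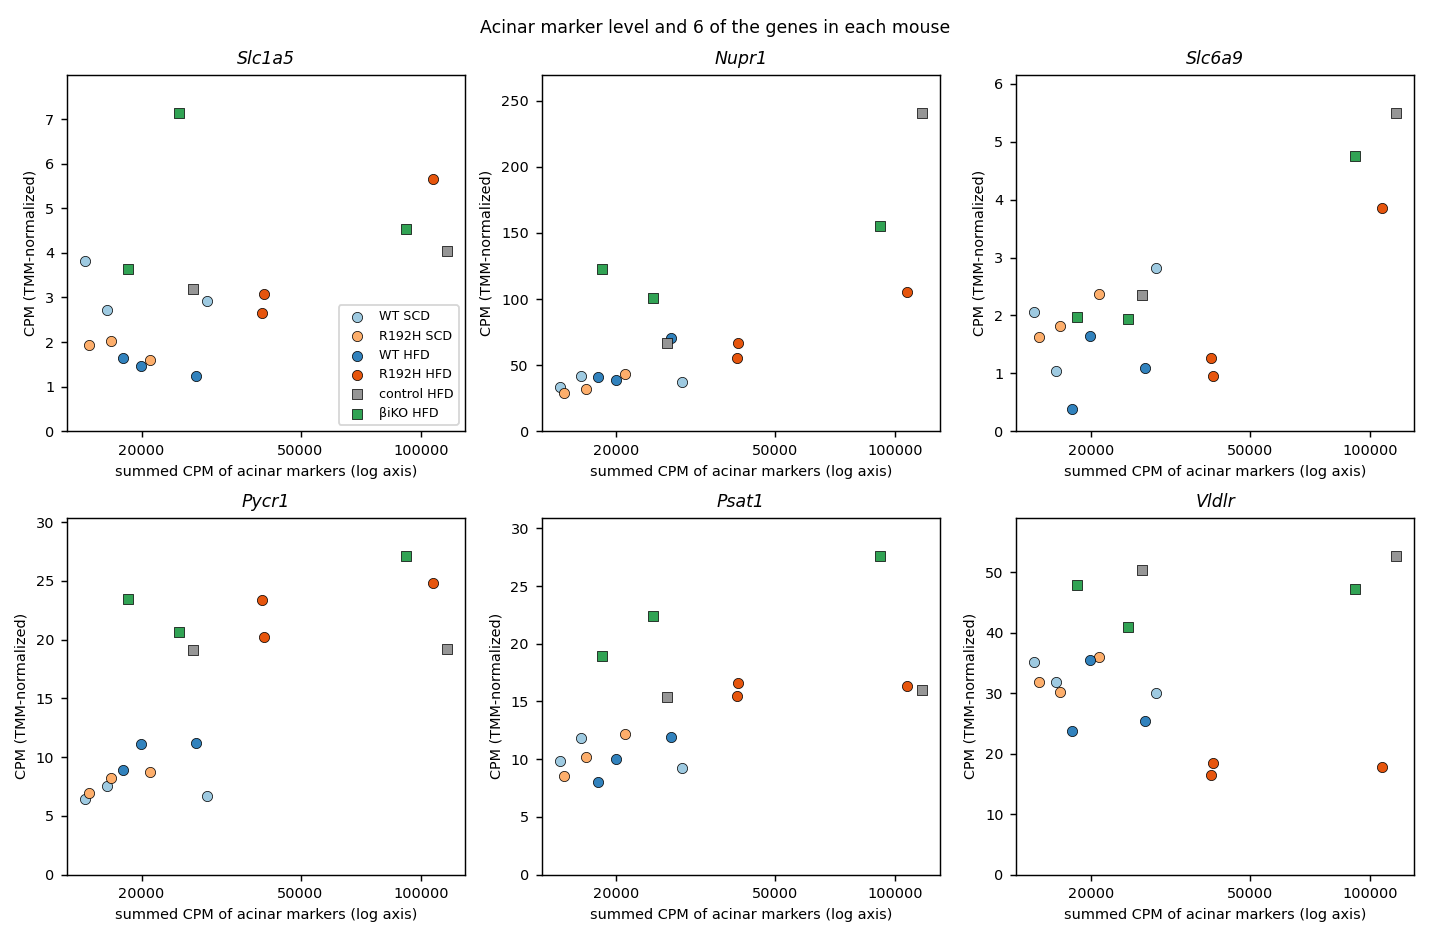
Level of 6 ISR genes (CPM, linear axis from 0) against the summed CPM of 23 acinar markers (log axis) in each of 17 mice; circles are the first table and squares the second. *Pycr1* and *Psat1* differ little in the 3 HFD-fed *Pax4* R192H mice, whose acinar sums are 107090, 40089 and 40458 CPM, and *Vldlr* is low in all 3. Among the *Pax4* βiKO mice, mouse 1 has the highest acinar sum, 91559 CPM, and the highest level of both *Pycr1* and *Psat1*. Within each table *Slc6a9* is highest in the mouse with the highest acinar sum.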

How the data were processed

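Bulk RNA-seq of islets from 17 mice was analysed from 2 tables, with groups taken from the sample titles. Stranded paired-end reads were mapped by the authors to mm10 (STAR v2.7.1), quantified with RSEM v1.3.3 and brought to gene level with tximport. The deposited files hold the resulting expected counts, unscaled, which were rounded to whole numbers here. Symbols and coordinates are from GENCODE M21 (GRCm38), promoter windows from RefSeq.

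Each table was fitted on its own in R v4.3.3 with edgeR v4.0.16: TMM factors, filterByExpr with a minimum count of 10, 1 coefficient per group and the quasi-likelihood F-test. This left 19137 of 78239 and 20167 of 73212 features. The SE was the log2 fold change divided by the square root of F. The floor of 3 counts was between 7.03e-06% and 1.24e-05% of a library, for counting error only.

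The 36 members and all other lists were chosen with earlier results of these data known. Values are given for *Atf4*, *Ddit3*, every member called in a comparison and, for a role group with none called, its member of lowest p on the HFD. Other genes named were chosen after their values were seen. Alternatives were RLE factors, no filter, DESeq2 v1.42.0, a replicate block, leaving out the 2 largest features, an acinar covariate, only the groups compared, the adjusted p alone and leaving out each mouse. Single-cell data of the study were not analysed here.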

Additional observations from a re-analysis of the deposited data

How the results depend on the processing

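RLE factors, leaving out the 2 most abundant features and using the adjusted p alone gave the same called members in all 6 comparisons. For *Pax4* R192H against wildtype on HFD (3 called with all mice and the main settings, and 2.28% of all tested genes), 7 were called without the filter (3.21%), 6 with DESeq2 (7.06%; *Phgdh*, *Psat1* and *Slc7a11* beside the 3), and 1, *Pycr1*, when only the groups compared entered the model (2.00%). With the acinar covariate 0 were called there (0.00523%, or 1 gene) and 1 of 8 remained in HFD against SCD in *Pax4* R192H (0.768%). Without the filter 1 was called between the genotypes on SCD (*Atf3*; 0.655%), 2 for the interaction (1.78%), 1 for the diets in wildtype (*Atf3*; 2.32%) and 1 in *Pax4* βiKO (*Psat1*; 1.80%). DESeq2 called 2 for the interaction (1.65%) and 2 for the diets in wildtype (2.84%). Leaving out each mouse gave between 1 and 4 calls for the genotypes on HFD (0.458% to 2.45% of all tested genes), between 5 and 7 for the diets in *Pax4* R192H (8.38% to 11.2%), and 0 in the other 4 comparisons.

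The labels do not say whether the replicate numbers pair the mice. Deviations of same-numbered mice from their group means correlated between -0.296 and 0.193 in the first table, with 5 of 18 pairs over 0.1, and at 0.0382 and 0.0729 in the second. With the replicate block, 1 member was called for the genotypes on HFD (*Pycr1*; 0.768%) and 7 for the diets in *Pax4* R192H (12.3%), where *Slc1a5* was not called, and 0 in the other 4. In *Pax4* βiKO against control, 0.436% of all tested genes were called with the block and 0.0893% without it.

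Some signs turned. On the HFD, *Nupr1* moved from 0.60 to -0.18 and *Ddit3* from -0.17 to 0.0033 with the acinar covariate. *Atf4* was between -0.11 and 0.14, *Trib3* between -0.40 and 0.082 and *Chac1* between -0.16 and 0.26 when single mice were left out, at -0.080 for *Atf4* without *Pax4* R192H mouse 2, 0.011 for *Trib3* without wildtype mouse 2 and -0.0018 for *Chac1* without *Pax4* R192H mouse 2. For the diets in *Pax4* R192H, *Ddit3* was between -0.030 and 0.36 when single mice were left out, below 0 without HFD-fed mouse 3. Between the genotypes on the HFD, *Atf4* was between 0.0054 and 0.19 over the alternatives that kept all mice. *Chac1* was between 0.010 and 0.46 and *Slc1a4* between 0.31 and 0.58 over these alternatives, and none of the 3 was called. The causes were not tested. *Stc2* and *Slc7a11* had the lowest levels per kb of exon in SCD-fed wildtype, and 2 controls limit the *Pax4* βiKO comparison.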

Other observations

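Several ISR genes were high in the mice with the most acinar marker RNA, also within a group. In the second table, control mouse 1 (acinar sum 116370 CPM) against control mouse 2 (26895 CPM) was at 241 against 66.6 CPM for *Nupr1*, 35.9 against 10.8 CPM for *Atf3*, 2.82 against 0.796 CPM for *Cth*, a cysteine synthesis enzyme, and 5.50 against 2.35 CPM for *Slc6a9*, a glycine transporter. *Pax4* βiKO mouse 1 (91559 CPM) was also the highest of its group for *Nupr1*, *Cth* and *Slc6a9*, at 155, 2.22 and 4.75 CPM, but not for *Atf3*, which was at 21.4 CPM there and at 46.7 CPM in *Pax4* βiKO mouse 2, with the lowest acinar sum of the group. *Pycr1* and *Psat1* were nearly equal in the 2 controls, at 19.2 and 19.1 CPM and at 16.0 and 15.4 CPM, while *Pax4* βiKO mouse 1 was the highest of its group for both, at 27.1 and 27.6 CPM. These genes were picked after their values were seen, the pairs are single mice, and no test was run.

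*Pycr1*, *Aldh18a1*, *Phgdh* and *Psat1* were higher in all 3 HFD-fed *Pax4* R192H mice than in any other mouse of the first table, while *Trib3* was lower on the HFD than on the SCD in both genotypes, with no overlap between the diets in either. The shares of all tested genes that meet these rules are not given here. Of all tested genes, 22.9% did not overlap between the genotypes on the HFD, and 41.8% between the diets in *Pax4* R192H. These genes were picked after their values were seen. The *Trib3* comparisons were not called.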
